A study of Mus musculus with 5 samples.

Results

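The 9 genes described here make, clear, bind or sense retinoic acid in the forelimb of mouse embryos: Aldh1a2, Aldh1a3, Dhrs3, Cyp26b1, Crabp1, Crabp2, Rara, Rarb and Rarg. They were chosen by symbol, and all 9 had 1 row each in an FPKM table (fragments scaled to transcript length and library total) that holds 22653 single gene symbols. Forelimbs were taken at E11.5, with 47 to 48 somites, from mice of mixed C57BL/6 and Swiss Webster strain, as 3 Control and 2 Prmt5cKO samples. The Prmt5cKO genotype is Prx1Cre+/-;Prmt5c/c, in which a Cre driven by a Prx1 enhancer in limb bud mesenchyme meets a conditional Prmt5 allele. The sources used here do not say whether Control embryos carried the Cre or a floxed allele. Each genotype has 1 deposited FPKM value per gene, so no SD over embryos can be given, and sequencing depth is unknown.

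Retinoic acid is made from retinol in a pair of oxidation steps, by retinol dehydrogenases such as Rdh10 and then by the retinaldehyde dehydrogenases of the Aldh1a family. It enters the nucleus with the help of CRABP proteins, binds RAR receptors that sit on DNA with RXR partners, and is removed by CYP26 hydroxylases. In the limb bud the acid comes mainly from Aldh1a2 activity in the trunk and proximal tissue, and Cyp26b1 clears it from the distal mesenchyme.

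In Prmt5cKO forelimbs the main synthesis enzyme Aldh1a2, the receptor Rarb and the binding protein Crabp2 were lower than in Control, to 55.4%, 48.3% and 69.9% of the Control level. The receptor Rara and the binding protein Crabp1 stood at 97.0% and 106% and did not pass the authors' test. The clearing enzyme Cyp26b1, the receptor Rarg and the retinal reductase Dhrs3 stood at 109%, 88.1% and 93.0% and were not tested by the authors. Aldh1a3, the other synthesis enzyme, was at 32.0% of Control, but under a mean of 1 FPKM. A gene was called changed where its mean over the genotypes reached 1 FPKM and the authors' q, an adjusted p-value, was under 0.05. Genes to which the table gives a fold of exactly 0 and a q of 1 were taken as untested.

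By this rule 8 of the 9 genes reached the minimum level. Cyp26b1, Rarg and Dhrs3 were untested, beside 9.05% untested among all genes of that level, and the other 5 were tested. Of these 5, 3 fell, none rose and 2 did not pass. Among all 10617 tested genes of at least 1 FPKM, 19.3% fell and 4.83% rose. The median log2 ratio of the 8 genes was -0.14, beside -0.13 over all genes of that level, so the median of the set lay near that of the table.

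Sex-linked transcripts differed as well: Xist, which coats the inactive X chromosome, had 87.3 FPKM in Control but 0.392 in Prmt5cKO, while all 4 Y-linked genes examined rose. Xist was among the genes taken as untested, so an untested gene is not thereby an unchanged one. Genotype and embryo sex therefore cannot be told apart for any difference in the retinoid genes. Prmt5 itself went from 40.9 to 12.5 FPKM. All 6 limb mesenchyme markers were present (Prrx1, Prrx2, Tbx5, Hand2, Msx1 and Twist1), with a summed level of 467 FPKM in Control and 466 in Prmt5cKO. Within that sum Msx1 (62.4 and 77.9 FPKM) and Prrx2 (96.7 and 105 FPKM) were higher in Prmt5cKO. Prrx1 (122 and 107 FPKM), Tbx5, Hand2 and Twist1 were lower. Of the 6 markers none was called changed, and Prrx1 was not tested. The forelimb factor Tbx5 was at 23.0 and 19.9 FPKM, and the hindlimb factors were lower in both genotypes, with Tbx4 at 3.81 and 2.95 FPKM and Pitx1 at 0.143 and 0.268. Of 5 macrophage markers 4 rose, with a sum of 12.7 and 22.0 FPKM, and the 6 surface ectoderm markers summed to 121 and 116 FPKM, with 1 rise (Epcam, 21.9 to 24.8 FPKM) and 1 fall (Krt15, 9.27 to 5.71 FPKM). The sums for 4 muscle, 4 endothelial and 4 erythroid markers were 94.6%, 90.2% and 78.7% of Control, and that for 5 nerve and Schwann markers 75.2%. Of these, the erythroid Alas2 and the Schwann cell gene Erbb3 fell, and no other marker in the 4 lists was called. The muscle sum is mostly Myog (26.6 and 23.0 FPKM), while Myod1, Myf5 and Pax3 were higher in Prmt5cKO. Pax3, under the minimum level and so not called, went from 0.525 to 1.14 FPKM (the authors' deposited table gives q = 0.0019). No marker in these lists was listed at 0, and the part of these cell types in the differences below was not tested. In whole tissue, fewer cells of a type and less RNA per cell cannot be told apart.

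**Figure D1:**
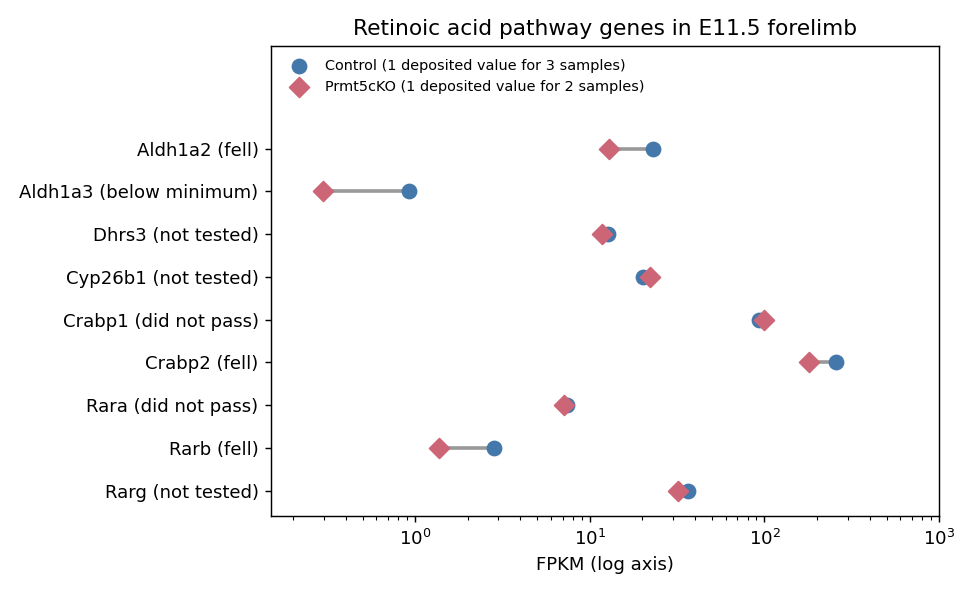
FPKM (log axis) of the 9 retinoic acid genes, 1 circle for Control and 1 diamond for Prmt5cKO per gene, joined by a line, with the call beside each symbol. Aldh1a2, Aldh1a3, Crabp2 and Rarb lie clearly to the left in Prmt5cKO, at 55.4%, 32.0%, 69.9% and 48.3% of Control, while the other 5 genes stay between 88.1% and 109%.

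The genes spanned a wide range of levels in Control forelimbs. Crabp2 was the most abundant at 256 FPKM, above 97.8% of all genes of at least 1 FPKM, followed by Crabp1 at 93.6, Rarg at 36.3, Aldh1a2 at 23.2, Cyp26b1 at 20.2 and Dhrs3 at 12.7 FPKM. Rara at 7.36, Rarb at 2.84 and Aldh1a3 at 0.925 FPKM were the lowest. In Prmt5cKO forelimbs the order was the same except that Cyp26b1, at 22.1 FPKM, stood above Aldh1a2, at 12.8. Without values per embryo it is not known which neighbours in this order differ by more than the spread between embryos.

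Aldh1a2 encodes the retinaldehyde dehydrogenase that supplies most retinoic acid to the early embryo. Its gene spans 71215789 to 71296243 on the plus strand of chromosome 9 (GRCm38, GENCODE M21, as for all genes below). Its level of 23.2 FPKM in Control compares with 12.8 in Prmt5cKO, and the authors' deposited table gives a log2 change of -0.85 (q = 2.7e-06). Of all genes of at least 1 FPKM, 97.4% had a higher ratio. Relative to the median ratio of all genes the change was -0.72 on the log2 scale.

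Aldh1a3, a second retinaldehyde dehydrogenase best known from the eye and nasal region, is found on the minus strand of chromosome 7 from 66390890 to 66427517. It went from 0.925 to 0.297 FPKM, and the authors' deposited table gives a log2 change of -1.64 (q = 6.6e-04). Its mean of 0.611 FPKM lies under the minimum level, so it is not counted above. With no minimum level 4 of the 9 genes fell, and none rose, against 12.4% falling and 3.13% rising among 17354 tested genes. Aldh1a1, the other gene of the trio, was at 0.0597 and 0.0268 FPKM. Summed over the 3 dehydrogenases the level was 24.1 FPKM in Control and 13.2 in Prmt5cKO (54.5%), and Aldh1a2 made up 95.9% and 97.5% of it.

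Dhrs3, on chromosome 4 from 144892827 to 144928209 (plus strand), encodes a reductase that turns retinaldehyde back into retinol and so limits retinoic acid. Its levels were 12.7 FPKM in Control and 11.8 in Prmt5cKO, a difference the authors did not test. The log2 ratio was -0.10, and 0.027 once centred on the median ratio of all genes, so no direction can be given.

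Cyp26b1, on chromosome 6 from 84571414 to 84593908 (minus strand), encodes the hydroxylase that degrades retinoic acid in limb mesenchyme. It was at 20.2 FPKM in Control and 22.1 in Prmt5cKO, a log2 ratio of 0.12 that the authors did not test. Only 15.8% of genes had a higher ratio. Its relative Cyp26a1, which clears retinoic acid elsewhere in the early embryo, was not called changed, at 3.55 and 4.50 FPKM (the authors' deposited table gives q = 0.223). Cyp26c1 was at 0.651 and 1.02 FPKM, under the minimum level, and a further row that names Cyp26c1 together with Exoc6 was left out. The 3 hydroxylases summed to 24.4 FPKM in Control against 27.6 in Prmt5cKO (113%), and Cyp26b1 made up 82.8% and 80.0% of these sums.

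The synthesis and degradation enzymes thus stood in a different proportion in each genotype. Aldh1a2 was 1.14 times Cyp26b1 in Control and 0.582 times in Prmt5cKO, a change of -0.98 on the log2 scale. A ratio of genes within a genotype does not depend on a common scaling of that genotype. It has no test here, since there is 1 value per genotype and Cyp26b1 was not tested.

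**Figure D2:**
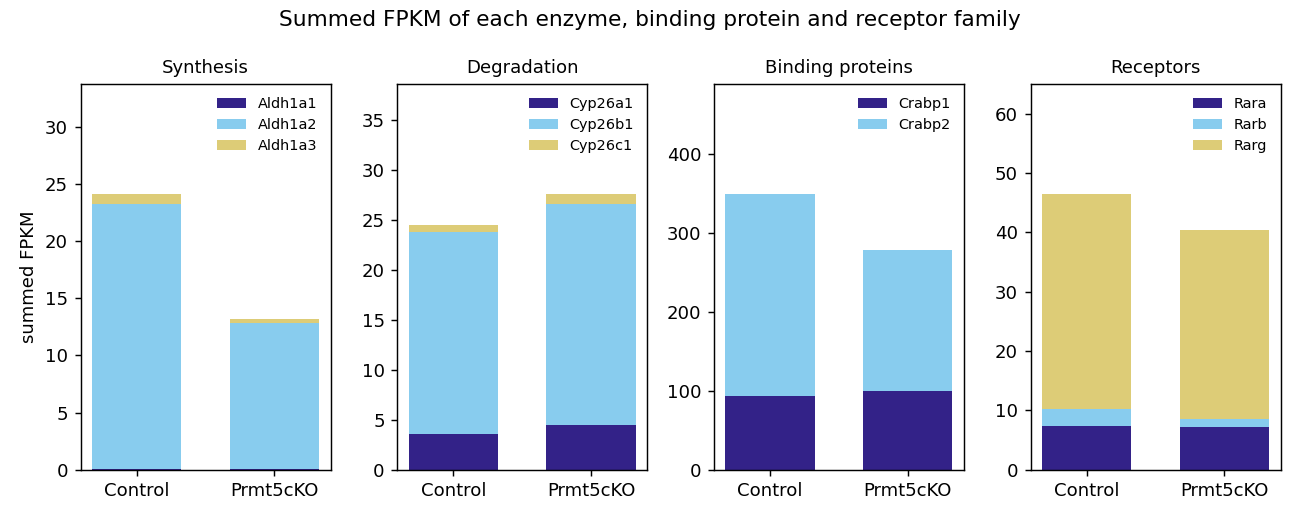
Summed FPKM (bars from 0, a separate axis for each panel) of the synthesis enzymes, degradation enzymes, binding proteins and receptors in Control and Prmt5cKO, with each gene as a coloured part of the bar. The synthesis bar drops from 24.1 to 13.2 and is nearly all Aldh1a2, the degradation bar stands at 24.4 and 27.6, and the lower CRABP bar in Prmt5cKO comes from the Crabp2 part.

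Crabp1 and Crabp2 encode small cytoplasmic proteins that bind retinoic acid. Crabp2 is known for handing the acid to RAR receptors, and Crabp1 for holding it in the cytoplasm. Crabp2, on chromosome 3 from 87948666 to 87953376 (plus strand), went from 256 to 179 FPKM, and the authors' deposited table gives a log2 change of -0.52 (q = 2.2e-04). A higher ratio than that of Crabp2 was held by 89.7% of genes of at least 1 FPKM. Crabp1, on chromosome 9 from 54764748 to 54773110 (plus strand), was at 93.6 and 99.2 FPKM, and the authors' deposited table gives a log2 change of 0.08 (q = 0.713). Crabp2 was 2.73 times Crabp1 in Control and 1.80 times in Prmt5cKO, and its share of the summed level went from 73.2% to 64.3%. The difference between these genes in their response was not tested.

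The 3 RAR genes encode nuclear receptors that share the same ligand. Rarg, the form most abundant here, lies on chromosome 15 from 102234938 to 102257517 (minus strand). It was at 36.3 FPKM in Control and 32.0 in Prmt5cKO, a log2 ratio of -0.18 that the authors did not test. Rara, on chromosome 11 from 98927818 to 98974942 (plus strand), did not pass, at 7.36 and 7.14 FPKM, and the authors' deposited table gives a log2 change of -0.04 (q = 0.768). After centring on the median of all genes the Rara ratio was 0.087 on the log2 scale, so its sign depends on the scaling.

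Rarb, on chromosome 14 from 16430839 to 16819156 (minus strand), is the receptor gene best known as a direct target of retinoic acid. It went from 2.84 to 1.37 FPKM, and the authors' deposited table gives a log2 change of -1.05 (q = 1.4e-04), and 98.8% of genes had a higher ratio. Of the 9 genes, Rarb is the one that a shorter deposited list of 208 genes also names. Every gene there has a log2 fold change of at least 1.0 in size, a q no higher than 0.0096 and at least 1.39 FPKM in a genotype. Aldh1a3, with a log2 change of -1.64 but 0.925 FPKM in Control, is not on it. Rarg made up 78.1% of the summed receptor level in Control and 79.0% in Prmt5cKO, Rara 15.8% and 17.6%, and Rarb 6.11% and 3.39%. Rara was 2.59 times Rarb in Control and 5.20 times in Prmt5cKO. The summed level of the 3 receptors was 46.5 and 40.5 FPKM (87.0%).

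RAR and RXR pairs bind direct repeats of a 6-base half-site, and a spacer of 5 bases (DR5) is the classic form. The Rarb start region is shown because Rarb fell and carries such a repeat, and that of Cyp26a1 because it was the other retinoid gene with one and did not fall. Each stretch of 30 bases is read 5′ to 3′ on the strand of the repeat, with the half-sites in capitals (RefSeq sequence, GRCm38.p6). The Rarb stretch lies at chr14:16575506-16575535 on the minus strand, the strand of the gene, and the Cyp26a1 stretch at chr19:37697770-37697799, also on the minus strand, opposite to the gene.
Rarb: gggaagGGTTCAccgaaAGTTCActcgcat
Cyp26a1: acaaattAGTTCAcccaaAGTTCAtcttta

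The Rarb repeat runs from base -53 to base -37 before the RefSeq start site and lies inside the first exon, in its 5′ UTR, of 2 of the 7 GENCODE transcripts of the gene. Windows from 250 bases before to 50 bases after a RefSeq start were held for 7 of the 9 genes, 13 windows in all. Crabp2, which fell, and Aldh1a3 had no window and were not searched. No GENCODE transcript starts within 50 bases of the RefSeq start used for Cyp26b1, or of the Rara start at 98964872. They were searched on both strands for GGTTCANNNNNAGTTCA, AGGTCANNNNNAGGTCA, AGGTCANNAGGTCA, and DR5 and DR2 repeats whose half-sites may start with A or G and have G or T as the third base. These last forms include the others. Rarb was the one gene of the 7 with any match. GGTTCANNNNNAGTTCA occurred in 0.00609% of 32851 such windows, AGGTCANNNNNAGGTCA and AGGTCANNAGGTCA in 0.00913% each, the variable DR5 form in 0.0974% and the variable DR2 form in 0.268%. Of the other 35 retinoid genes, 24 had windows, and Cyp26a1 alone held a match. A match in letters is a description of the sequence and does not show that a receptor binds there in these limbs.

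**Figure D3:**
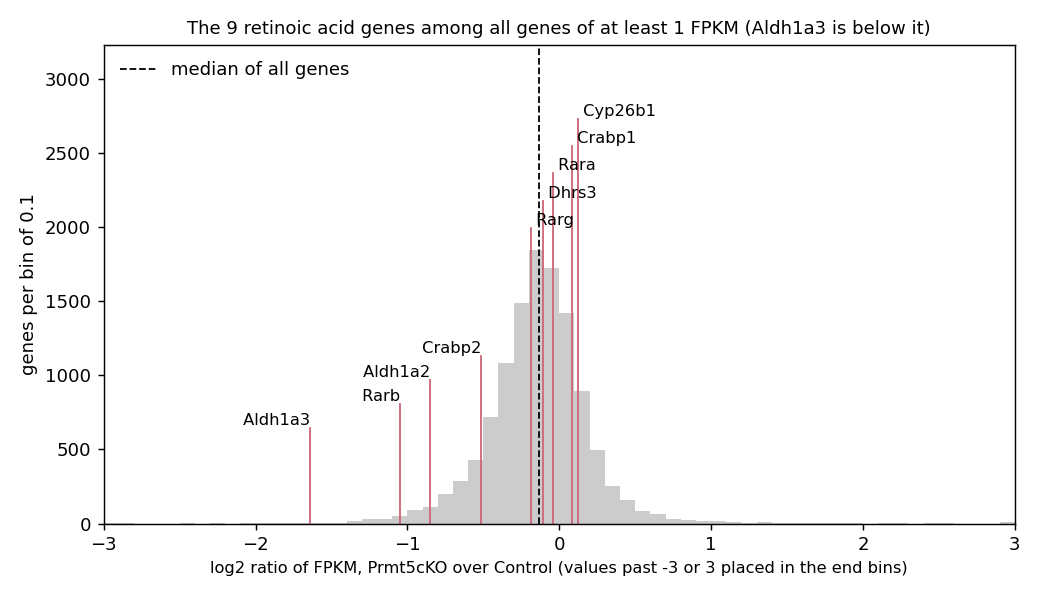
Grey bars count genes of at least 1 FPKM by log2 ratio of Prmt5cKO over Control in bins of 0.1, with values past either end placed in the end bins. Red lines, with heights that serve only the labels, mark the 9 retinoic acid genes, and the dashed line the median of -0.13. Aldh1a3, Rarb and Aldh1a2 lie in the left tail, and Crabp2 nearer the centre, with 10.3% of genes at a lower ratio. The other 5 lie within the central peak, where the signs of Rara and Dhrs3 turn when ratios are centred on the median.

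Further genes of the pathway were examined in lists by role, 35 genes in all. Of these, 26 reached a mean of 1 FPKM and 21 were tested, of which 7 fell, none rose and 14 did not pass, beside 19.3% falling and 4.83% rising over all tested genes. The median log2 ratio of the 26 genes was -0.18.

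The list named supply and synthesis, which also holds enzymes that can act as reductases, held most of these falls. Of 11 genes, 6 reached the minimum level, and 4 of these 6 fell while 2 did not pass, with a median log2 ratio of -0.49. Stra6, the membrane receptor that takes up retinol from its carrier and is itself induced by retinoic acid, went from 13.3 to 6.69 FPKM, and the authors' deposited table gives a log2 change of -0.99 with a q of 0. Rdh10, the retinol dehydrogenase that makes retinaldehyde in the embryo, went from 8.66 to 6.21 FPKM, and the authors' deposited table gives a log2 change of -0.48 (q = 0.0023). Rdh11 and Dhrs4, dehydrogenases and reductases that can act on retinoids, both fell: the authors' deposited table gives log2 changes of -0.49 for Rdh11 and -0.86 for Dhrs4. In which direction these enzymes act on retinoids in these limbs was not tested, so their falls cannot be read as less synthesis. Adh5, a widely expressed alcohol dehydrogenase, at 95.5 and 102 FPKM, did not pass. The remaining gene of this level, the retinol carrier Rbp4, also did not pass, at 1.16 and 1.24 FPKM.

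Genes that fell included Stra6 for retinol uptake, Rdh10 for the first oxidation and Aldh1a2 for the next, while Adh5 and Rbp4 did not pass. These genes were picked from a table in which 19.3% of tested genes fell, and whether the pathway fell as a whole was not tested. Rdh10 was 0.682 times Dhrs3, which catalyses the reverse step, in Control and 0.526 times in Prmt5cKO. That ratio has no test. In the clearance and binding list, Cyp26a1 and Fabp5, a fatty acid-binding protein that can also carry retinoic acid, did not pass, and Fabp5 was at 125 and 120 FPKM.

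**Figure D4:**
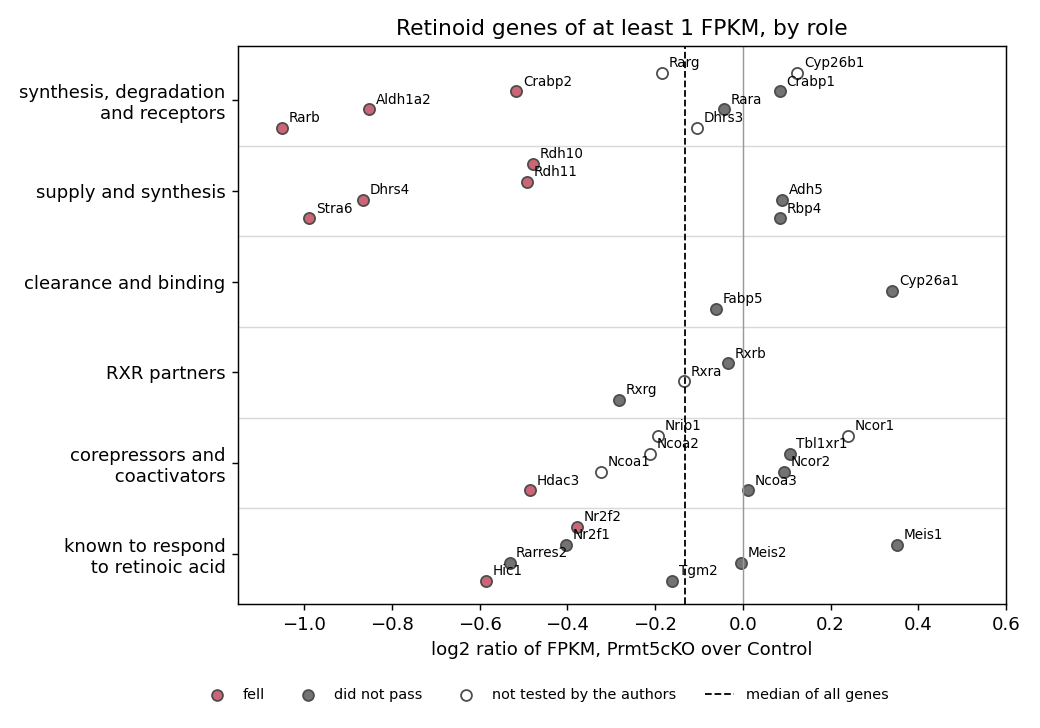
Log2 ratio of FPKM (Prmt5cKO over Control) for the retinoid genes of at least 1 FPKM, 1 point per gene in rows by role, filled red where the gene fell, grey where it did not pass and white where the authors did not test it. Red points number 3 among the 5 tested genes of the first row and 4 among the 6 tested supply and synthesis genes. Over all tested genes of at least 1 FPKM, 19.3% fell. The RXR row has no red point, but only 2 of its genes were tested, too few to set it apart. The dashed line marks the median of all genes, -0.13, and heights within a row serve only the labels.

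None of the RXR genes, which encode the DNA-binding partners of the RAR receptors, passed. Rxrb was at 21.5 FPKM in Control and 21.0 in Prmt5cKO, Rxrg at 1.45 and 1.19, and Rxra, not tested by the authors, at 15.7 and 14.3. Their summed level was 94.5% of Control. Of 8 corepressors and coactivators, 4 were tested and 1 fell, a share near the 19.3% of all tested genes. This gene, Hdac3, which encodes the deacetylase of the NCOR corepressor complex, went from 67.3 to 48.1 FPKM, and the authors' deposited table gives a log2 change of -0.49 (q = 1.1e-04). Ncor1, the corepressor itself, was at 30.5 and 36.0 FPKM and was not tested.

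Of 10 genes known to respond to retinoic acid in embryos or cells, 7 reached the minimum level, and 2 of these fell, none rose and 5 did not pass. With 19.3% of all tested genes falling, a count this small does not set the list apart. Nr2f2, an orphan nuclear receptor, went from 11.4 to 8.78 FPKM, and the authors' deposited table gives a log2 change of -0.38 (q = 9.1e-07). Hic1, a transcriptional repressor, went from 4.20 to 2.80 FPKM, and the authors' deposited table gives a log2 change of -0.59 (q = 0.020). Meis1 and Meis2, homeobox genes of the proximal limb that retinoic acid can induce, did not pass. Meis1 was at 4.65 and 5.92 FPKM (the authors' deposited table gives q = 0.173), and Meis2 at 4.43 and 4.42 FPKM (the authors' deposited table gives q = 0.987).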

How the data were processed

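The genes and lists were chosen with earlier results of these data known. Per the file headers, the authors deposited 1 FPKM value per genotype, a log2 fold change (Prmt5cKO relative to Control) and a q-value for each gene. Cufflinks 2.1.1, TopHat2 2.0.10 and Bowtie2 2.1.0 are named in the submitters' processing notes, with the build mm10. Not given in the sources used here were the annotation, the test behind the q-value and the way replicates were combined. Whether the q-value measures the spread between embryos is therefore unknown. Of 28092 rows, 4367 without a gene name and 597 naming several genes were left out. A repeated symbol was represented by its row with the highest mean. Every fold and q named as the authors' is theirs, and other log2 ratios were computed from FPKM with no pseudocount.

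FPKM corrects for length and total, not composition, and the table leans downwards (median log2 ratio -0.13), so ratios were also centred on the median and quantile normalized. The motif search was checked on simulated sequences with planted repeats. Calling and centring were run on simulated data whose q-values and shift were set beforehand, which checks only the code. With no values per sample, depth is unknown, reads were not recovered, and no test over replicates was run. All 9 genes are named. From each other list the text names the genes that changed and the 2 with the highest mean, and further Rdh10, the RXR genes, Meis1 and Meis2. Rbp4 and the members under 1 FPKM that are named were added after their values were seen, as was the repeat search. A gene of the supply list is not reported here and was left out of its counts. With 2 values per gene no likeness of pattern was measured. Alternatives were minimum means of 0 and 5 FPKM, q thresholds of 0.01 and 0.10, and pseudocounts of 1 and 0.1 FPKM. Work was done in Python 3.11.15 with pandas.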

Additional observations from a re-analysis of the deposited data

How the results depend on the processing

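The falls of Aldh1a2 and Crabp2 were called at each minimum level and q threshold run, and that of Rarb at all but the minimum mean of 5 FPKM, which leaves it out. Centring and quantile normalization kept the authors' q and could change only a sign, so they do not test whether these calls are stable. The counts were 4 falls with no minimum level, which adds Aldh1a3, and 2 with a minimum of 5 FPKM, beside 3. Among the other retinoid genes 6 or 7 fell under each setting run. No gene of either set rose under any of them, which rests on the authors' q alone, as unadjusted p-values are not in the tables used here. Signs turned for 2 genes that were not called. Dhrs3 was at 0.027 after centring on the median ratio and 0.050 after quantile normalization, and Rara at 0.087 and 0.12, beside -0.10 and -0.04. The change in the Rarg share of the receptor sum, 0.91 percentage points, was -0.11 after quantile normalization and 0.47 with 1 FPKM added to each value. A pseudocount of 1 FPKM brought Aldh1a3 from -1.64 to -0.57 and Rarb from -1.05 to -0.70 on the log2 scale. The change of the Aldh1a2 to Cyp26b1 ratio ranged from -0.98 to -0.92. Leaving out each replicate was not run, because the tables hold no values per sample. No paired analysis was possible because the deposited columns carry no replicate numbers.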

Other observations

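The variable DR5 repeat found before Rarb and Cyp26a1 occurred in the start windows of 31 genes. Of these, 10 had rows in the table and 7 were tested at a mean of at least 1 FPKM. Rarb fell, the other 6 did not pass and none rose, beside 19.6% falling and 4.8% rising among the 7945 tested genes of that level with a window. This search was added after the values were seen.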
